A study of Mus musculus with 6 samples.

Results

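The myosin-binding protein C and H genes form a family of 5 in the mouse, Mybpc1, Mybpc2, Mybpc3, Mybph and Mybphl. They were found by gene symbol in a deposited table of RNA-seq read counts for 24062 symbols, and all 5 were present. The family was chosen by measured differences between these same Med12cKO and CTL libraries, that of Mybphl among them, so each difference below is a description and no test of the family. RNA came from both ventricles of male C57/Bl6N mice aged 1 day. The mutant mice were Med12cKO (CrePOS), a cardiac-specific knockout of Med12, an X-linked subunit of Mediator, the bridge between gene-specific regulators and the transcription machinery. The controls (CTL, CreNEG) were negative for Cre. There were 3 libraries per group. The labels name neither the promoter that drives Cre nor the Med12 alleles of the controls. As Cre was present in the Med12cKO mice alone, Cre itself and loss of Med12 cannot be told apart, and since no label ties a library to 1 animal, the spread behind each p-value may be partly technical.

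MyBP-C proteins are chains of immunoglobulin-like and fibronectin-like domains that sit on the thick filament of the sarcomere, bind myosin and titin, and regulate how myosin heads reach actin. Mybpc3 encodes the cardiac form, mutated in human hypertrophic cardiomyopathy, and its protein is phosphorylated by protein kinase A downstream of beta-adrenergic signalling. Mybpc1 and Mybpc2 encode the slow and fast skeletal muscle forms. Mybph and Mybphl encode the shorter myosin-binding proteins H and H-like, the first known from fast skeletal muscle and the second from atria and the ventricular conduction system.

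Total counts ran from 8453346 to 10911698 per library, and 13629 genes passed a filter on low counts. Levels are given as CPM, each count scaled to its library's total after TMM correction for composition. Med12 measured 61.6, 85.0 and 41.3 CPM in Med12cKO replicates 1 to 3, against 103, 176 and 113 CPM in CTL replicates 1 to 3, and the groups did not overlap. All Med12cKO libraries lay below all CTL libraries in 3.64% of the 13629 genes. The test results for Med12 are given with those of the members. Myl2, the ventricular regulatory myosin light chain, was abundant in every library, at 4872 to 7379 CPM in Med12cKO and 6339 to 8075 CPM in CTL. Some libraries stood apart. The 10 T-cell and thymus markers summed to 737 CPM in Med12cKO replicate 1 and 734 CPM in CTL replicate 3, against 3.26 and 3.98 CPM in the other Med12cKO libraries and 4.49 and 2.19 CPM in the other CTL libraries. Med12cKO replicate 1 also had the highest sum of skeletal muscle markers, as given beside Mybpc1 and Mybpc2. In bulk tissue, fewer cells of a type and less RNA per cell cannot be told apart, which applies to each difference below.

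The promoters of the 4 members with measurable levels are shown because those members took different directions. Each window holds 250 bases before to 50 bases after the RefSeq start on GRCm38.p6, 5′ to 3′ on the gene's strand, and all 5 members matched an entry. Capitals mark matches, on both strands, to the MEF2 motif, the CArG box read by SRF, the TATA box written TATAAA, the GATA-factor core written AGATAA, the T-box core written AGGTGT and the MCAT element of TEAD factors written CATTCC.
Mybpc3 (chr2:91117894-91118193, plus strand): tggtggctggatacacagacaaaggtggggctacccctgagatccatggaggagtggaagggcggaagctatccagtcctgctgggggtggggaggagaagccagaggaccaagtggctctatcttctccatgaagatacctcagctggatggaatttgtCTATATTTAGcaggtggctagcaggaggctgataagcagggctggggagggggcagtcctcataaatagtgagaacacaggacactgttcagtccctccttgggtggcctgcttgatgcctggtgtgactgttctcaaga
Mybphl (chr3:108364661-108364960, plus strand): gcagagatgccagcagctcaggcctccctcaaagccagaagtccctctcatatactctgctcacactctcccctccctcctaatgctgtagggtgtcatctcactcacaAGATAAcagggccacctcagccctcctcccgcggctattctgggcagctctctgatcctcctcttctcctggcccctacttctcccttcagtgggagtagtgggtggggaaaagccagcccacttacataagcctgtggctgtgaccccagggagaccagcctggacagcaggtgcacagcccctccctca
Mybpc2 (chr7:44524620-44524919, minus strand): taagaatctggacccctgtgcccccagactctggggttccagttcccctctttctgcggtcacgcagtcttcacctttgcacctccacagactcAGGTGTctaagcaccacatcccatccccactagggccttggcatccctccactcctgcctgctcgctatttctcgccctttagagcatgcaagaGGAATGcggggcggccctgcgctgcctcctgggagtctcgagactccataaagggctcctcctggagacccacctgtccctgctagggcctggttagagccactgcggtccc
Mybpc1 (chr10:88605103-88605402, minus strand): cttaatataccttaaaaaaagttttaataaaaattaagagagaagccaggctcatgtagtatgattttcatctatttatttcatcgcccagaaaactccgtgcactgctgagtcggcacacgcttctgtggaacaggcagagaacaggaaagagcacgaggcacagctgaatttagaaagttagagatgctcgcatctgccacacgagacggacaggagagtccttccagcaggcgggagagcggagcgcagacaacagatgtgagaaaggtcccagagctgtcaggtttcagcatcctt

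A MEF2 motif lay at position -90 in the Mybpc3 window, matching on both strands, and 3.19% of 32851 promoter windows of the same length hold one. The Mybphl window held AGATAA at position -141, a match found in 11.2% of windows. AGGTGT was found at -156 and CATTCC, on the opposite strand, at -62 of the Mybpc2 window, in 13.7% and 14.7% of windows. None of the 6 motifs matched in the Mybpc1 window. The CArG box matched in none of the 5 members' windows and in 1.63% of all windows. TATAAA was found in the Mybph window alone of the 5, and in 13.6% of all windows. GC content was 54.7% for Mybpc3, 59.0% for Mybphl, 60.7% for Mybpc2 and 46.7% for Mybpc1, against a median of 52.7% over all windows. A match is a run of letters and shows no binding.

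The members lie on 5 chromosomes and differ in size. Their annotated exons (GENCODE M21, GRCm38) add up to 4527 bases for Mybpc1, 3611 for Mybpc2, 4163 for Mybpc3, 2329 for Mybph and 1276 for Mybphl. The longest coding sequences, without the stop codon, were 3381, 3408 and 3834 bases for Mybpc1, Mybpc2 and Mybpc3, against 1449 bases for Mybph and 1065 bases for Mybphl. Aligned base by base, Mybph and Mybphl were identical at 72.7% of 1047 aligned coding bases. The other 9 pairs shared between 59.9% and 66.0%. No stretch of 36 bases was shared by transcripts of any 2 members, so a read of that length without errors fits 1 member only.

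Mybpc3 was the dominant member in every library, and its level overlapped between the groups. The gene (ENSMUSG00000002100.15, chromosome 2, 91118144 to 91136516, plus strand) measured 3423, 3821 and 4100 CPM in Med12cKO replicates 1 to 3. In CTL replicates 1 to 3 it measured 3616, 4586 and 3841 CPM. The highest library was CTL replicate 2 and the lowest Med12cKO replicate 1, and the 4 others lay between. Means were 3781 ± 340 CPM in Med12cKO and 4014 ± 508 CPM in CTL (SD, n = 3 each), a log2 fold change of -0.09 (SE 0.17). Without CTL replicate 2 the sign turned, to 0.022 (SE 0.20), and the ratio was 0.893 within letter I and 1.06 between the single libraries with letter J. None of its exon bases are shared with another gene model.

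Mybphl was lower in each Med12cKO library than in any CTL library, at 68.3% of the CTL mean. The gene (ENSMUSG00000068745.6, chromosome 3, 108364911 to 108380057, plus strand) measured 62.8, 60.6 and 59.1 CPM in Med12cKO replicates 1 to 3, against 93.9, 95.1 and 78.2 CPM in CTL replicates 1 to 3. Every Med12cKO library lay below every CTL library, and the Med12cKO libraries spread less among themselves. Means were 60.8 ± 1.88 CPM in Med12cKO and 89.1 ± 9.40 CPM in CTL (SD, n = 3 each), a log2 fold change of -0.55 (SE 0.12). The sample descriptions begin with either I or J. Among I libraries the Med12cKO to CTL ratio was 0.703 (2 libraries per group), and it was 0.645 between the 1 Med12cKO and 1 CTL library with J. What these letters stand for is not explained in the labels. A gene model on the opposite strand, Gm12522, shares 6.97% of the exon bases of Mybphl and measured 0.493 to 0.902 CPM in Med12cKO and 0.575 to 0.765 CPM in CTL.

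Mybpc2, the fast skeletal form, was higher in each Med12cKO library than in any CTL library, at a low level. The gene (ENSMUSG00000038670.11, chromosome 7, 44501699 to 44524656, minus strand) had 164, 169 and 109 counts in Med12cKO replicates 1 to 3, against 63, 86 and 56 counts in CTL replicates 1 to 3. Scaled, these were 18.5, 16.7 and 11.7 CPM in Med12cKO and 7.25, 8.19 and 5.36 CPM in CTL. The groups did not overlap, with Med12cKO replicate 3 nearest to the CTL range. Means were 15.6 ± 3.50 CPM in Med12cKO and 6.93 ± 1.44 CPM in CTL (SD, n = 3 each), a log2 fold change of 1.17 (SE 0.24). The ratio was 2.23 within letter I and 2.30 between the single libraries with letter J.

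Mybpc1, the slow skeletal form, was also higher in each Med12cKO library, but 1 library set the size of its difference. The gene (ENSMUSG00000020061.17, chromosome 10, 88518279 to 88605152, minus strand) had 188, 47 and 35 counts in Med12cKO replicates 1 to 3 and 14, 27 and 16 counts in CTL replicates 1 to 3. Scaled, it measured 21.2, 4.64 and 3.77 CPM in Med12cKO and 1.61, 2.57 and 1.53 CPM in CTL. Med12cKO replicate 1 stood far above the others, while replicates 2 and 3 lay above the CTL range, at 2.43 and 1.98 times the CTL mean. The Med12cKO to CTL ratio was 6.09 within letter I, which holds Med12cKO replicate 1, and 2.88 between the single libraries with letter J. Means were 9.87 ± 9.82 CPM in Med12cKO and 1.90 ± 0.580 CPM in CTL (SD, n = 3 each). The log2 fold change was 2.36 (SE 0.75), and without Med12cKO replicate 1 it was 1.12 (SE 0.37). Of the exon bases of Mybpc1 5.57% are shared with a model on the opposite strand, and of those of Mybpc2 5.32%.

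Mybph, the myosin-binding protein H gene, was barely detected. It had 5, 4 and 1 counts in Med12cKO replicates 1 to 3, against 1, 0 and 1 counts in CTL replicates 1 to 3. Each CTL library and Med12cKO replicate 3 stayed under the limit of 3 counts that a count of 0 allows, which corresponds to 0.286 to 0.345 CPM there and 0.296 to 0.338 CPM in Med12cKO. Summed, the ratio of 10 Med12cKO counts to 2 CTL counts per total was 5.34, with an exact 95% interval of 1.14 to 50.1 that covers counting error only. Mybph (ENSMUSG00000042451.12, chromosome 1, 134193448 to 134201232, plus strand) did not pass the low-count filter. Moreover 49.9% of its exon bases are shared with Adora1, the adenosine A1 receptor gene on the opposite strand. Adora1 measured 36.6 to 46.7 CPM in Med12cKO and 28.0 to 47.6 CPM in CTL, and since no source used here states whether counting used strand, reads from the shared bases cannot be told apart.

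**Figure D1:**
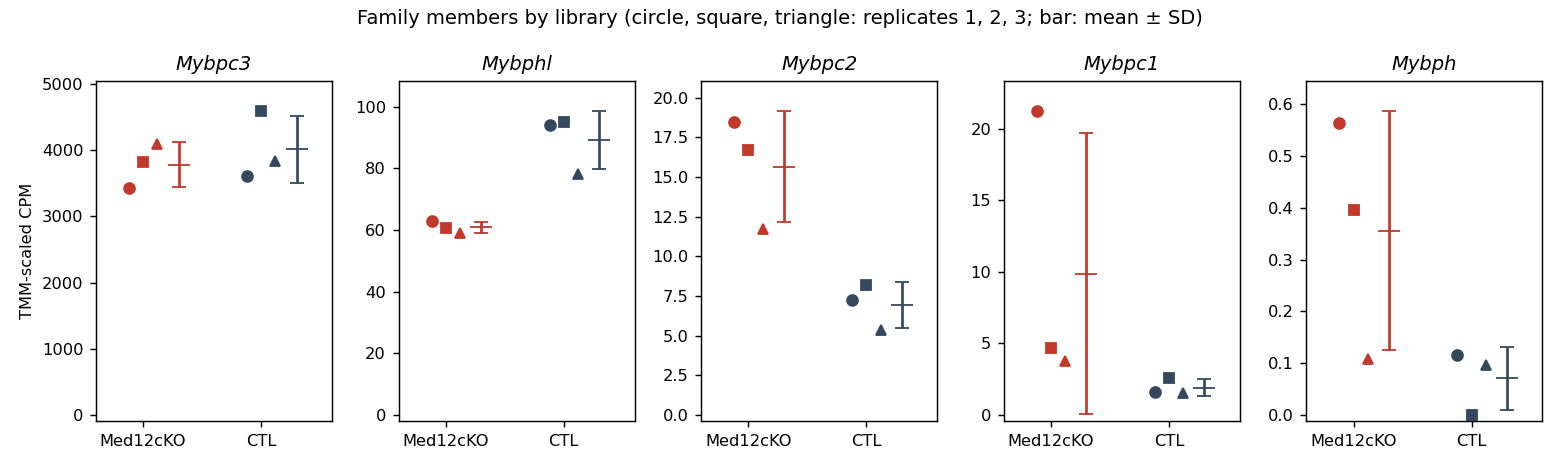
TMM-scaled CPM of each family member (one panel each, with its own axis from 0) in the 3 Med12cKO libraries (red, left) and the 3 CTL libraries (dark, right); circle, square and triangle are replicates 1, 2 and 3, and the bars are mean ± SD. Mybphl lies between 59.1 and 62.8 CPM in Med12cKO and between 78.2 and 95.1 CPM in CTL, while Mybpc1 is highest in Med12cKO replicate 1 at 21.2 CPM.

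Of the 5 members 4 passed the low-count filter, and 0 were called at an adjusted p under 0.05 in the edgeR quasi-likelihood fit of the whole table, where 0.022% of the 13629 genes tested were called (0.00734% higher, 0.0147% lower). The lowest adjusted p among the members was 0.277, for Mybpc2, followed by 0.302 for Mybphl. At an unadjusted p under 0.05 edgeR had 2 members higher and 1 lower, against 2.16% and 1.61% of all genes tested (3.78% in either direction). DESeq2 called Mybpc2 (adjusted p = 0.0153) and Mybpc1 (adjusted p = 0.033) higher and Mybphl lower (adjusted p = 0.0254), where it called 0.25% of the 12795 genes with an adjusted p higher and 0.258% lower (0.508% in all). Med12, the knockout target, was not called by edgeR either (log2 fold change -1.06, SE 0.30, adjusted p = 0.765). DESeq2 called Med12 lower (adjusted p = 0.0246). The lack of an edgeR call is therefore not read as an unchanged level, here or below. Groups that did not overlap were found in 2 members above CTL and 1 below, against 4.59% and 3.64% of all genes tested (8.23% together). The median log2 fold change over the 4 members was 0.54 and over all genes tested 0.01. Because these values led to the choice of the family, nothing is read from the counts.

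Compared per kilobase of exon, the members spanned several orders of magnitude in the same order of means in both groups. Mybpc3 averaged 908 ± 81.7 CPM per kb in Med12cKO and 964 ± 122 CPM per kb in CTL (SD, n = 3 each). Mybphl followed at 47.7 ± 1.47 CPM per kb in Med12cKO and 69.8 ± 7.37 CPM per kb in CTL. The skeletal forms came next, Mybpc2 at 4.33 ± 0.97 CPM per kb in Med12cKO and 1.92 ± 0.40 CPM per kb in CTL. Mybpc1 averaged 2.18 ± 2.17 CPM per kb in Med12cKO and 0.421 ± 0.128 CPM per kb in CTL. Mybph came last, at 0.153 ± 0.099 CPM per kb in Med12cKO and 0.0302 ± 0.0265 CPM per kb in CTL. No neighbours in this order overlapped in CTL. In Med12cKO the only neighbours to overlap were Mybpc2 (3.25 to 5.12 CPM per kb) and Mybpc1 (0.832 to 4.68 CPM per kb).

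**Figure D2:**
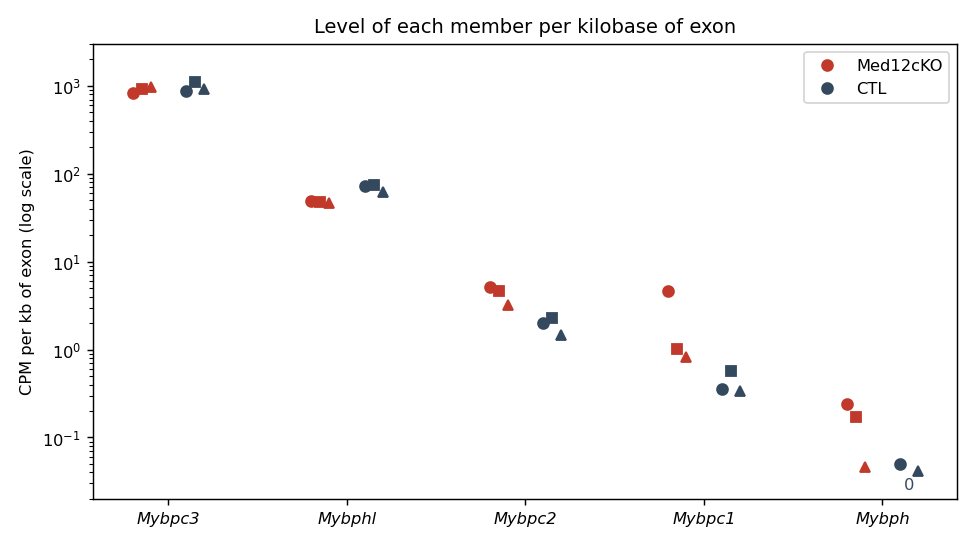
CPM per kilobase of exon, on a log axis, for each member in the 3 Med12cKO libraries (red) and the 3 CTL libraries (dark), symbols by replicate; a 0 marks the CTL library with no Mybph count. Mybpc3 lies between 822 and 1102 CPM per kb over the 6 libraries, above Mybphl at 46.3 to 74.5.

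Mybpc3 made up 93.3% to 95.1% of the family's summed level per kilobase in Med12cKO and 92.0% to 93.6% in CTL. The share of Mybphl was 5.58%, 4.89% and 4.47% in Med12cKO replicates 1 to 3, against 7.79%, 6.32% and 6.22% in CTL replicates 1 to 3. The groups did not overlap in this share. Mybpc2 took 0.314% to 0.581% in Med12cKO and 0.150% to 0.213% in CTL. The summed level of the family overlapped, at 881 to 1035 CPM per kb in Med12cKO and 945 to 1179 CPM per kb in CTL.

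Transcripts of proteins that MyBP-C binds or sits beside on the thick filament mostly had negative log2 fold changes, and none was called by edgeR. Of 12 listed partners 12 were tested, 10 had a negative and 2 a positive log2 fold change, and 0 were called higher or lower by edgeR over all genes (adjusted p at least 0.129). Table-wide, edgeR called 0.022% of genes. DESeq2 called 1 lower, beside 0.258% of all genes. The median log2 fold change of the list was -0.26, beside 0.01 over all genes. Myh7, the slow myosin heavy chain of the heart, differed most within the list (log2 fold change -1.24, SE 0.39). It measured 1233, 1799 and 2475 CPM in Med12cKO replicates 1 to 3, against 3575, 6782 and 2688 CPM in CTL replicates 1 to 3. Neither tool called Myh7 (edgeR adjusted p = 0.882, DESeq2 adjusted p = 0.724). All Med12cKO libraries lay below all CTL libraries in 4 of the 12, Myh7 among them, beside 3.64% of all genes. Myl7, the atrial regulatory light chain, stood at -1.10 (SE 0.18) and was the one gene that DESeq2 called (adjusted p = 2.1e-07). Myh7b, a slow myosin heavy chain of skeletal and heart muscle, stood at -0.72 (SE 0.21) and Myh6, the fast heart myosin, at -0.38 (SE 0.25). Titin (Ttn), on which MyBP-C is spaced along the filament, stood at -0.02 (SE 0.18).

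Relative to its myosin partners the cardiac form was at 60.1%, 44.0% and 62.1% of the summed Myh6 and Myh7 level per kilobase in Med12cKO replicates 1 to 3. In CTL replicates 1 to 3 it was at 44.6%, 33.7% and 45.9%. These ranges overlapped through Med12cKO replicate 2. Against titin, Mybpc3 per kilobase was 34.0 to 47.6 times as high in Med12cKO and 36.7 to 47.7 times in CTL, which also overlapped.

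Enzymes that add or remove phosphate on cardiac MyBP-C, or can do so, showed no call in either tool. Table-wide, edgeR called 0.022% of genes and DESeq2 0.508%, so nothing is read from this. At an unadjusted p under 0.05 in edgeR 1 was higher (Prkcd) and 1 lower (Rps6ka1), beside 2.16% and 1.61% of all genes. Of 14 listed kinases and phosphatases 14 were tested, 10 with a positive and 4 with a negative log2 fold change and a median of 0.03. In 1 of the 14, the protein kinase C isoform Prkcd, all Med12cKO libraries lay above all CTL libraries, beside 4.59% of all genes. Prkcd measured 63.2 to 75.7 CPM in Med12cKO and 45.7 to 57.4 CPM in CTL (log2 fold change 0.42, SE 0.13, edgeR adjusted p = 0.783). Rps6ka1, a ribosomal S6 kinase, differed most, at -0.53 (SE 0.23), and was highest in CTL replicate 3, at 47.5 CPM. Camk2d, the main CaM kinase II of the heart, stood at 0.11 (SE 0.14), and Prkce, another protein kinase C, at 0.19 (SE 0.19).

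Mybphl is known from atrial muscle, so atrial markers were set beside it. Of 14 listed genes 14 were tested, 11 with a negative and 3 with a positive log2 fold change and a median of -0.32, beside 0.01 over all genes. None was called by edgeR, and 3 were called lower by DESeq2, beside 0.258% of all genes. At an unadjusted p under 0.05 in edgeR 6 were lower and 0 higher, beside 1.61% and 2.16% of all genes. The DESeq2 calls were Myl7, Gja5 (connexin 40, log2 fold change -0.99, SE 0.14) and Dkk3, a secreted protein of the Dickkopf family (-0.65, SE 0.16). Kcnj3, a potassium channel of atrial and pacemaker cells, stood at -0.47 (SE 0.49). The groups did not overlap, Med12cKO below, in 5 of the 14, namely Myl7, Gja5, Dkk3, Stard10 and Tbx5, beside 3.64% of all genes. The list's summed level overlapped, at 5929 to 7696 CPM in Med12cKO and 6485 to 8881 CPM in CTL, and none of its genes was at 0 in all libraries. The other atrial light chain, Myl4, measured 867 to 1083 CPM in Med12cKO and 727 to 931 CPM in CTL. The 3 positive log2 fold changes were those of Nppa (0.18, SE 0.27), Myl4 (0.16, SE 0.16) and Bmp10 (0.0042, SE 0.86). The part of atrial tissue in the Mybphl difference was not tested.

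Against Myl7, Mybphl was at 5.86%, 4.60% and 6.32% of its level per kilobase in Med12cKO replicates 1 to 3. In CTL replicates 1 to 3 it was at 3.50%, 3.83% and 4.01%. The ratio was higher in each Med12cKO library than in any CTL library, as the log2 fold change of Myl7 (-1.10) was further from 0 than that of Mybphl (-0.55). Of 9 markers of the ventricular conduction system, where Mybphl is also known, 9 were tested, 0 were called by edgeR and 1, Gja5, was called lower in DESeq2, beside 0.258% of all genes. The median log2 fold change of that list was -0.03, with Irx3, a transcription factor of the His-Purkinje network, at 0.39 (SE 0.22). Cntn2, the contactin of Purkinje fibres, measured 3.83 to 7.70 CPM in Med12cKO and 4.59 to 7.72 CPM in CTL. Among 6 markers of working ventricular muscle 6 had a negative log2 fold change, with a median of -0.48, 0 calls in edgeR and 2, Hey2 and Lbh, called lower in DESeq2, beside 0.258% of all genes. All Med12cKO libraries lay below all CTL libraries in 3 of the 6, namely Myh7, Hey2 and Lbh, beside 3.64% of all genes. Hey2, a repressor known for ventricular identity, stood at -1.04 (SE 0.15), Lbh, a transcriptional cofactor, at -0.66 (SE 0.14) and Irx4, a ventricular homeobox factor, at -0.30 (SE 0.17).

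**Figure D3:**
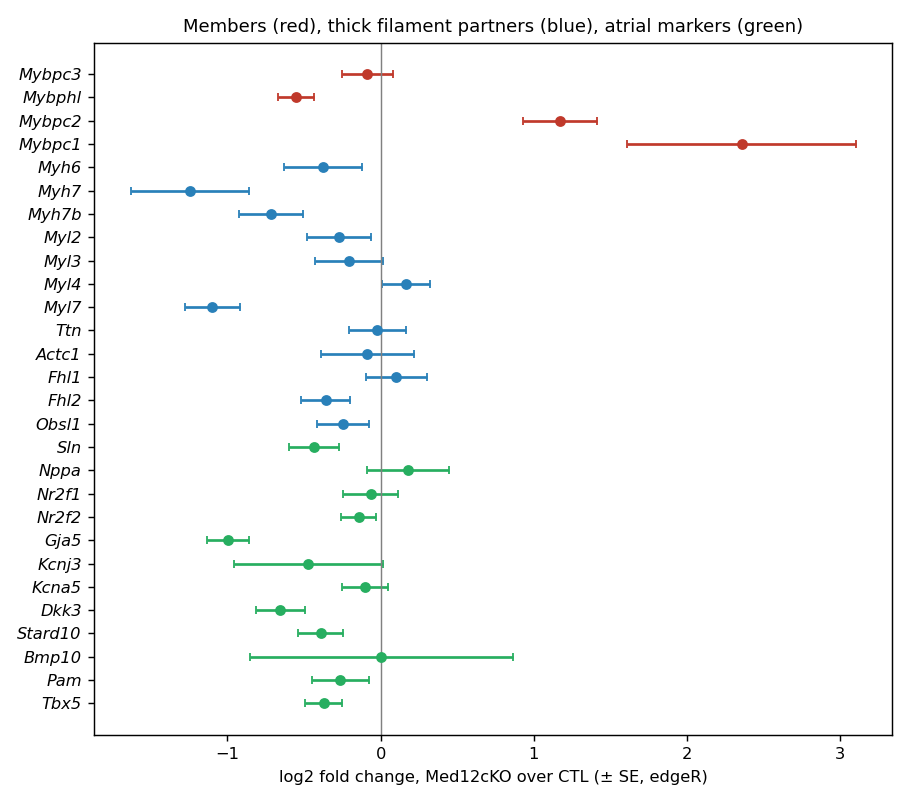
Log2 fold changes of Med12cKO over CTL from the edgeR fit, with standard errors, for the 4 members tested (red), the thick filament partners (blue) and the atrial markers not already shown (green); 0 means equal levels. Mybphl at -0.55 lies between Myl7 at -1.10 and Tbx5 at -0.37, and Mybpc2 and Mybpc1 are the points right of 1.

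Skeletal muscle markers were also high in the library where Mybpc1 was highest. Of 18 listed genes 12 were tested, 11 with a positive and 1 with a negative log2 fold change and a median of 1.45, with 0 called by edgeR and 1, Casq1, called higher by DESeq2, beside 0.25% of all genes. In 2 of the 12, Casq1 and the fast troponin T gene Tnnt3, all Med12cKO libraries lay above all CTL libraries, beside 4.59% of all genes. The largest differences were those of Casq1, the skeletal calsequestrin (log2 fold change 2.25, SE 0.25), Myh3, the embryonic myosin heavy chain (1.83, SE 0.91), the fast light chain gene Mylpf (1.79, SE 0.89) and the fast troponin C gene Tnnc2 (1.71, SE 1.16). The list summed to 514, 318 and 332 CPM in Med12cKO replicates 1 to 3, against 135, 161 and 115 CPM in CTL replicates 1 to 3. Without Casq1 the sums were 321, 95.2 and 83.2 CPM in Med12cKO and 92.9, 94.99 and 82.9 CPM in CTL. Without Casq1, the sum was high in Med12cKO replicate 1, while replicates 2 and 3 were within 1 CPM of the CTL range or inside it. Single genes differed from this sum in both directions. Tnni2, the fast troponin I gene, measured 15.6, 2.57 and 2.26 CPM in Med12cKO replicates 1 to 3. In CTL replicates 1 to 3 it measured 7.25, 4.67 and 5.83 CPM, so Med12cKO replicates 2 and 3 lay below the CTL range. Tnnt3 measured 29.3, 5.82 and 5.27 CPM in Med12cKO replicates 1 to 3, against 4.26, 4.76 and 5.07 CPM in CTL replicates 1 to 3. Acta1, the skeletal actin gene that heart muscle also expresses and that is not on the list, measured 232, 86.9 and 109 CPM in Med12cKO replicates 1 to 3, against 56.0, 51.2 and 39.6 CPM in CTL replicates 1 to 3. Among listed genes that did not pass the filter, Myh1 had 110, 3 and 7 counts in Med12cKO replicates 1 to 3. In CTL replicates 1 to 3 it had 0, 5 and 4 counts. In the same order, Myh2 had 76, 2 and 1 counts against 0, 1 and 0. Ryr1 had 35, 8 and 6 counts against 7, 6 and 6, and Myh4 8, 2 and 2 against 0, 2 and 0. Myod1, the regulator that defines skeletal myoblasts, had at most 3 counts in any library. It was at 0 in Med12cKO replicates 2 and 3 and CTL replicate 1 and at 0.191 to 0.338 CPM in the others. Myog, also not tested, is given below.

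In Med12cKO replicate 1 the 12 tested markers had a median of 4.83 times their CTL mean, while Mybpc1 was at 11.1 times and Mybpc2 at 2.67 times. In Med12cKO replicates 2 and 3 the markers' median was 1.23 and 0.847 times the CTL mean. There Mybpc1 was at 2.43 and 1.98 times, and Mybpc2 at 2.41 and 1.69 times. Casq1 was at 4.14, 4.78 and 5.36 times its CTL mean in Med12cKO replicates 1 to 3. CTL libraries lay between 0.773 and 1.18 times for Mybpc2 and between 0.803 and 1.35 times for Mybpc1. Both skeletal members were above their CTL range in Med12cKO replicates 2 and 3. The markers' median rests in part on genes with few reads, such as Pvalb at 10 to 16 counts per library. The part of skeletal muscle tissue in the differences of Mybpc1 and Mybpc2 was not tested. Without Med12cKO replicate 1 the log2 fold change of Mybpc2 was 1.02 (SE 0.27), beside 1.17 (SE 0.24) with it.

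**Figure D4:**
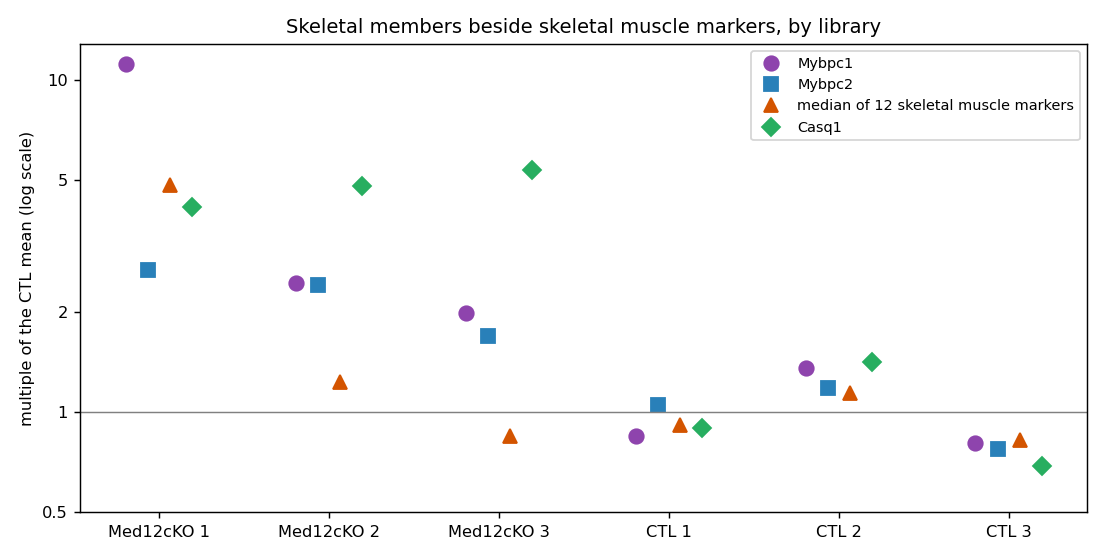
Level of Mybpc1, Mybpc2, Casq1 and the median of the 12 tested skeletal muscle markers (Casq1 included) in each library, as a multiple of the CTL mean, on a log axis with 1 as the grey line. In Med12cKO replicate 1 the marker median is 4.83, and in Med12cKO replicates 2 and 3 it is 1.23 and 0.847. Mybpc1 and Mybpc2 lie between 1.69 and 2.43 in Med12cKO replicates 2 and 3.

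Across the 6 libraries, log2 CPM of Mybpc1 and Mybpc2 had a Pearson r of 0.87, and Mybphl had r of -0.63 with Mybpc1 and -0.75 with Mybpc2. Mybpc3 lay between -0.45 and 0.32 with the others. These are descriptions over 6 libraries that include the group difference. Among 12953 genes with an average log2 CPM of at least 1, the patterns most like Mybphl were those of Slc2a1, the glucose transporter GLUT1 (r = 0.98), Abcb6, an ABC transporter (0.98), and Slc22a5, a carnitine transporter (0.98), and 21 genes had r above 0.95. Closest to Mybpc2 were Kctd10 (0.99), Arhgap24 (0.99) and St6galnac2 (0.98). Acta1 (0.95) was among the 3 closest to Mybpc1, with Apoa2 and Nup93 (0.95 each), and Inppl1 (0.99), Kcnc2 (0.99) and Usp20 (0.99) were closest to Mybpc3. Above 0.95 there were 6 genes for Mybpc1, 20 for Mybpc2 and 24 for Mybpc3. How many unrelated genes would pass 0.95 over 6 libraries was not tested, so no shared regulation is read from these matches.

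Among the genes next to the members none was called. Of the 10 nearest protein-coding neighbours, 212 to 88756 bases away, 8 were tested, 0 were called by edgeR or DESeq2, and 0 had an unadjusted p under 0.05. Table-wide, edgeR called 0.022% of all genes tested and DESeq2 called 0.508% of those with an adjusted p. An unadjusted p under 0.05 in edgeR was found in 3.78% of all genes tested. With shares this small, nothing is read from 0 of 8. Sort1, the sortilin gene 3399 bases before Mybphl, stood at 0.21 on the log2 scale (SE 0.24), and Psrc1, 3781 bases after it, at 0.14 (SE 0.27). Beside Mybpc2, Fam71e1 stood at 0.04 (SE 0.36) and Spib, an immune transcription factor gene, at -0.23 (SE 1.63). Chil1, a chitinase-like gene beside Mybph, was furthest from 0, at -1.47 (SE 1.00), and was highest in CTL replicate 1, at 8.29 CPM against 0.762 to 1.58 CPM in the other libraries. Chpt1, a phospholipid synthesis gene beside Mybpc1, stood at 0.22 (SE 0.11) and Madd beside Mybpc3 at -0.03 (SE 0.22). Myog, the myogenin gene and a neighbour of Mybph, did not pass the filter, at 0.0987 to 1.24 CPM in Med12cKO and 0.460 to 0.861 CPM in CTL.

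**Figure D5:**
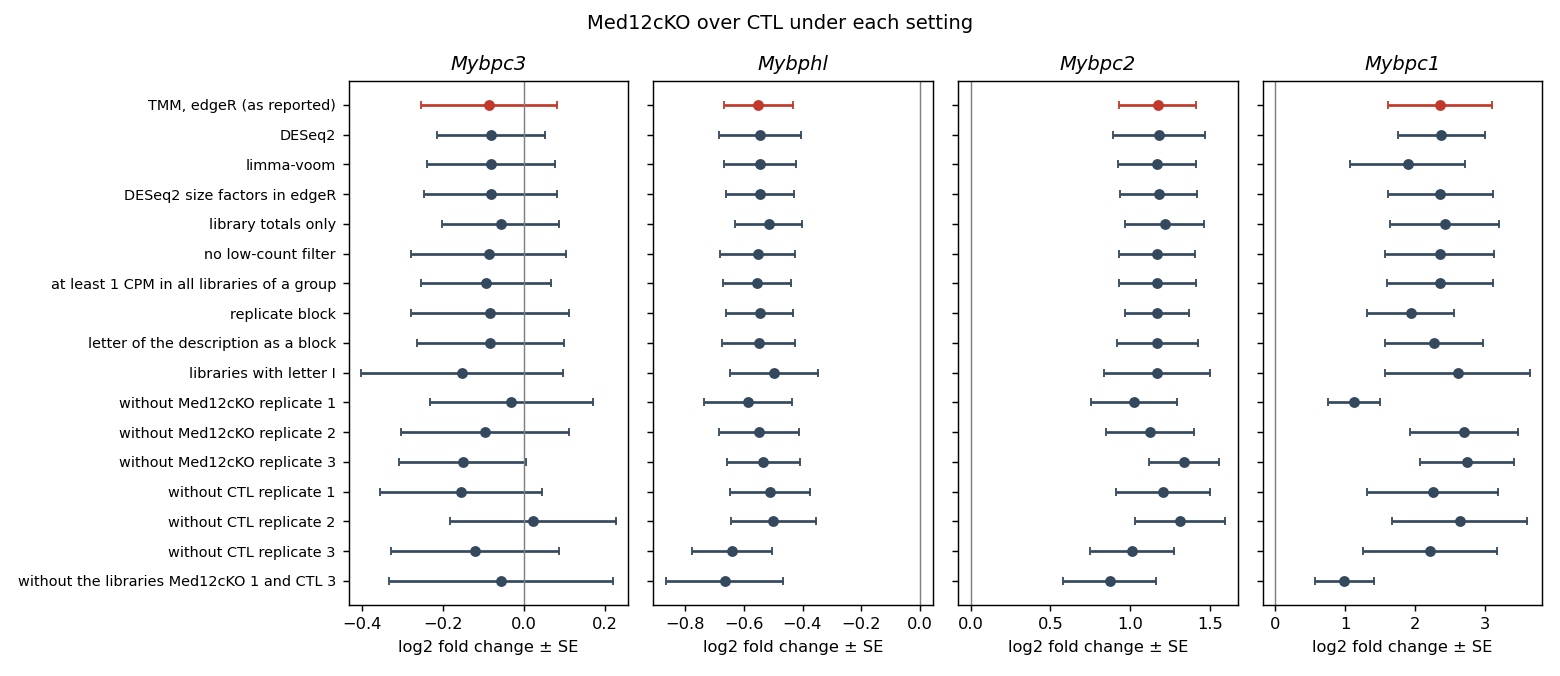
Log2 fold change of Med12cKO over CTL with its standard error for Mybpc3, Mybphl, Mybpc2 and Mybpc1 under the reported fit (red) and 16 alternatives (dark), each on its own axis. Mybphl lies between -0.66 and -0.50, Mybpc2 between 0.87 and 1.34 and Mybpc1 between 0.99 and 2.74, while Mybpc3 lies on both sides of 0, from -0.16 to 0.022.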

How the data were processed

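The authors deposited raw read counts per gene symbol, with no normalization. Per the submitters' processing notes, TopHat2 2.0.0, featureCounts and edgeR 3.14.0 were named, with GRCm38 (mm10). Annotation, strand setting and read length: not given in the sources used here. Libraries were mapped to groups by titles and descriptions. Counts were fitted with edgeR 4.0.16 in R 4.3.3 (quasi-likelihood F test, robust, TMM; filterByExpr, count at least 10, total at least 15), with Benjamini-Hochberg adjustment across 13629 genes and calls at 0.05. Standard errors (SE) were derived as the log2 fold change over the square root of F. DESeq2 1.42.0 and limma-voom (limma 3.58.1) were alternatives, and all 3 were tested on simulated counts. Exon lengths and positions came from GENCODE M21, promoter sequences from RefSeq (GRCm38.p6), alignments from Biopython 1.88. Pairs of libraries within a group differed beyond sampling noise, with a chi-square of 14.5 to 29.3 per degree of freedom.

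The members and lists were chosen with earlier results of these data known. Text names the members, Med12, up to 4 genes per list by the largest absolute log2 fold change, overlapping and nearest genes, and the 3 genes most alike in pattern. Genes with an adjusted p of NA in DESeq2 were left as NA. Other genes with values (Myl2, Myl4, Ttn, Cntn2, Myod1, Myh1, Myh2, Myh4, Ryr1, Pvalb, Nppa, Bmp10, Stard10, Tbx5, Tnnt3, Tnni2) were named after their values were seen. Some genes that the rule names are not reported here.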

Additional observations from a re-analysis of the deposited data

How the results depend on the processing

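Of the 16 alternatives per member, 15 kept direction and side of the threshold for each of Mybpc1, Mybpc2 and Mybphl, and the exception was DESeq2, which called all 3, with log2 fold changes of 2.38, 1.18 and -0.55. Mybpc3 turned sign without CTL replicate 2, to 0.022, and leaving out single libraries gave -0.16 to 0.022. Leave-one-out values lay between 1.12 and 2.74 for Mybpc1, 1.01 and 1.34 for Mybpc2, and -0.64 and -0.50 for Mybphl. The cause was not tested. The edgeR count of 1 gene higher and 2 lower became 32 and 33 with DESeq2, 2 higher with limma-voom and with library totals only, and 0 higher with DESeq2's size factors in edgeR. Among the 4 libraries with letter I it was 0 higher and 1 lower. Leaving out single libraries gave 0 to 1 higher, with 0 without Med12cKO replicate 3 or CTL replicate 1, and 1 to 2 lower, with 1 without Med12cKO replicate 3. Without Med12cKO replicate 1 and CTL replicate 3 together, chosen after the data were seen, 2 were higher, Mybpc1 stood at 0.99, Mybpc2 at 0.87 and Mybphl at -0.66.

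Whether replicate numbers pair the libraries could not be told. The descriptions of same-numbered libraries began with different letters for replicates 1 and 2, and with the same letter for replicate 3. Same-numbered libraries had deviations from their group means correlated at -0.31, 0.44 and -0.35. Med12cKO replicate 2 matched best with CTL replicate 2, Med12cKO replicate 1 with CTL replicate 3, and Med12cKO replicate 3 with CTL replicate 1. Med12cKO replicate 1 and CTL replicate 3 were also the libraries with T-cell and thymus transcripts, which enter these correlations. With the replicate block 0 genes were higher and 2 lower, and Mybpc1 stood at 1.93, Mybpc2 at 1.17, Mybpc3 at -0.08 and Mybphl at -0.55, none called. Mybph could be fitted only without the low-count filter (log2 fold change 2.18, edgeR adjusted p = 1.00), and 10 Med12cKO and 2 CTL counts limit any statement.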
